A study of Mus musculus with 19 samples.

Results

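Presynaptic release machinery genes are described here as a set of 34, chosen by symbol out of 55487 genes in the deposited tables. Of these, 11 members build the active zone, 11 belong to SNARE fusion and its control, and 12 sit on or act on synaptic vesicles. The members were followed in 4 groups of mouse RNA sequencing libraries. There were 3 cultures given a locked nucleic acid (LNA, a chemically stabilised antisense oligonucleotide) against the microRNA miR-146a and 3 cultures given a control LNA. All 6 cultures were wild-type motor neurons grown from the mouse embryonic stem cell line RW.4 with retinoic acid and SAG, an agonist of hedgehog signalling, and transfected with 10 nM LNA by Lipofectamine 2000 for 72 h. There were also 9 spinal cords labelled miR-146a KO and 4 labelled wild-type (WT). Strain, age, sex, litter and batch of the animals are not given in the labels used here, nor is it stated that replicates came from separate cultures or animals, so p-values measure the spread between these libraries. All cultures came from 1 cell line.

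Neurotransmitter release takes place at the active zone, where RIM, Bassoon, Piccolo, ELKS, Munc13 and liprin-α proteins hold calcium channels and dock and prime vesicles. SNARE proteins on the vesicle (synaptobrevins) and on the plasma membrane (syntaxin 1 and SNAP-25) then pull both membranes together, under the control of the calcium sensors of the synaptotagmin family and of complexins. Synapsins tether vesicles in a reserve pool, and transporters fill them, with acetylcholine in motor neurons and with glutamate or glycine in many spinal interneurons. A microRNA such as miR-146a pairs through its seed with sites in the 3′ untranslated region (UTR) of messenger RNAs and lowers them, and an LNA against it is used to block that pairing.

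The mature miR-146a-5p sequence and its seed matches in the members are shown because they say which members could pair with the inhibited microRNA. The microRNA is encoded on chromosome 11 from 43374435 to 43374456, minus strand (RefSeq, GRCm38.p6), and its seed, bases 2 to 8, is in capitals.
mmu-miR-146a-5p: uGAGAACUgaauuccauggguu

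A match to the seed (letters AGTTCTC, read on the sense strand of 3′ UTRs of the GENCODE vM21 basic set, GRCm38) was found in 7 of the 33 members with an annotated 3′ UTR. Of all genes tested in the cultures with such a UTR, 1928 of 14322 (13.5%) held it. The longest 3′ UTR had a median of 2375 bases in these 33 members and 1189 bases in all those genes. The matches lie in Erc1 and Ppfia2 of the active zone, Vamp1 and Syt1 of the fusion machinery, and the 3 synapsin genes Syn1, Syn2 and Syn3. In the lines that follow the seed match is in capitals within its flanks.
Erc1 (chromosome 6, 119573927 to 119573933, minus strand): tcattgctgctcAGTTCTCtcaattttttt
Ppfia2 (chromosome 10, 106934461 to 106934467, plus strand): ttgccatctgttAGTTCTCacctatatttc
Vamp1 (chromosome 6, 125221211 to 125221217, plus strand): cactcttccgttAGTTCTCcctgcagccgc
Syt1 (chromosome 10, 108498943 to 108498949, minus strand): tgtagcacaaacAGTTCTCattcttaagga
Syn1 (chromosome X, 20861302 to 20861308, minus strand): ggtcctaaatccAGTTCTCacatttgggaa
Syn2 (chromosome 6, 115275417 to 115275423, plus strand): cctgaccgccttAGTTCTCagcctttgacc
Syn3, first match (chromosome 10, 86293888 to 86293894, minus strand): tcattgaacttgAGTTCTCagagagattcc
Syn3, second match (chromosome 10, 86292335 to 86292341, minus strand): atattttcccagAGTTCTCagagttacttg
The match is followed by an A, the longer form of the site, in Ppfia2, Syt1, Syn1, Syn2 and at both places in Syn3. A match of letters is a description and does not show that the microRNA acts there.

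Total counts ran from 40647549 to 65471742 in LNA cultures, from 53082991 to 60516445 in control cultures, from 28163289 to 39577247 in KO cords and from 31671608 to 36946892 in WT cords. The cultures carried motor neuron RNA: the acetylcholine transporter Slc18a3 averaged 880 TPM in LNA and 939 TPM in control cultures, and peripherin Prph 3090 and 2970 TPM. Red blood cell markers were near 0 there, with a sum of at most 1.02 TPM in any culture. The precursor gene Mir146 had 1 count in the 9 KO cords together and 0 in the WT cords and cultures, so it checks no label. Pttg1, which separated the genotypes, stood at 1.06 to 1.81 normalised CPM in KO cords 1 to 8 and at 14.9 to 17.4 in WT cords, but at 13.0 in the library labelled KO 9. The library labelled KO 7 held skeletal muscle RNA, with Acta1 at 2564 normalised CPM against at most 6.03 in any other cord. Both are kept. The main cord counts and the medians of the classes and of neighbouring genes are also given without them. So are the fold changes of Vamp1, Rph3a, Snap25, Syn2, Bsn, Pclo, Erc1, Ppfia2 and Slc17a7.

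The members' levels were compared as TPM, a read share that corrects for gene length. In control cultures the fusion genes were the most abundant, with the synaptotagmin Syt4 at 1332 TPM, the complexin Cplx1 at 709, synaptobrevin 2 (Vamp2) at 630.5, Syt11 at 530.0 and Snap25 at 241. Of the vesicle genes, the small GTPase Rab3a stood at 666 TPM, Syn1 at 443, synaptophysin (Syp) at 253.5, Syn2 at 172 and Sv2c at 60.6. Among active zone genes the most abundant were the liprins Ppfia2 at 64.0 and Ppfia3 at 49.0 TPM, with Erc2 at 49.0, Rims1 at 44.2 and Erc1 at 39.0. The vesicle class also held scarce genes, down to Slc17a7 at 0.380 TPM. Bsn and Pclo, the large scaffolds Bassoon and Piccolo, reached 7.99 and 6.76 TPM.

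Cultures and cords differed in which family members were abundant. By mean TPM, 10 of the 34 members stood higher in control cultures than in WT cords, among them Syt4 (1332 against 57.7 TPM), Stx1a, the plasma membrane syntaxin (191 against 25.2 TPM), Ppfia2 (64.0 against 10.5 TPM) and Erc1 (39.0 against 8.94 TPM). The other 24 stood lower in cultures, with the Munc13 gene Unc13c at 1.26 TPM against 64.6 TPM in WT cords, synaptobrevin 1 (Vamp1) at 9.40 against 447 TPM, rabphilin Rph3a at 14.9 against 743 TPM and the vesicular glutamate transporter Slc17a6 at 1.078 against 109 TPM. These pairs differ in tissue, age and cell makeup together, and no test was made between them.

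**Figure D1:**
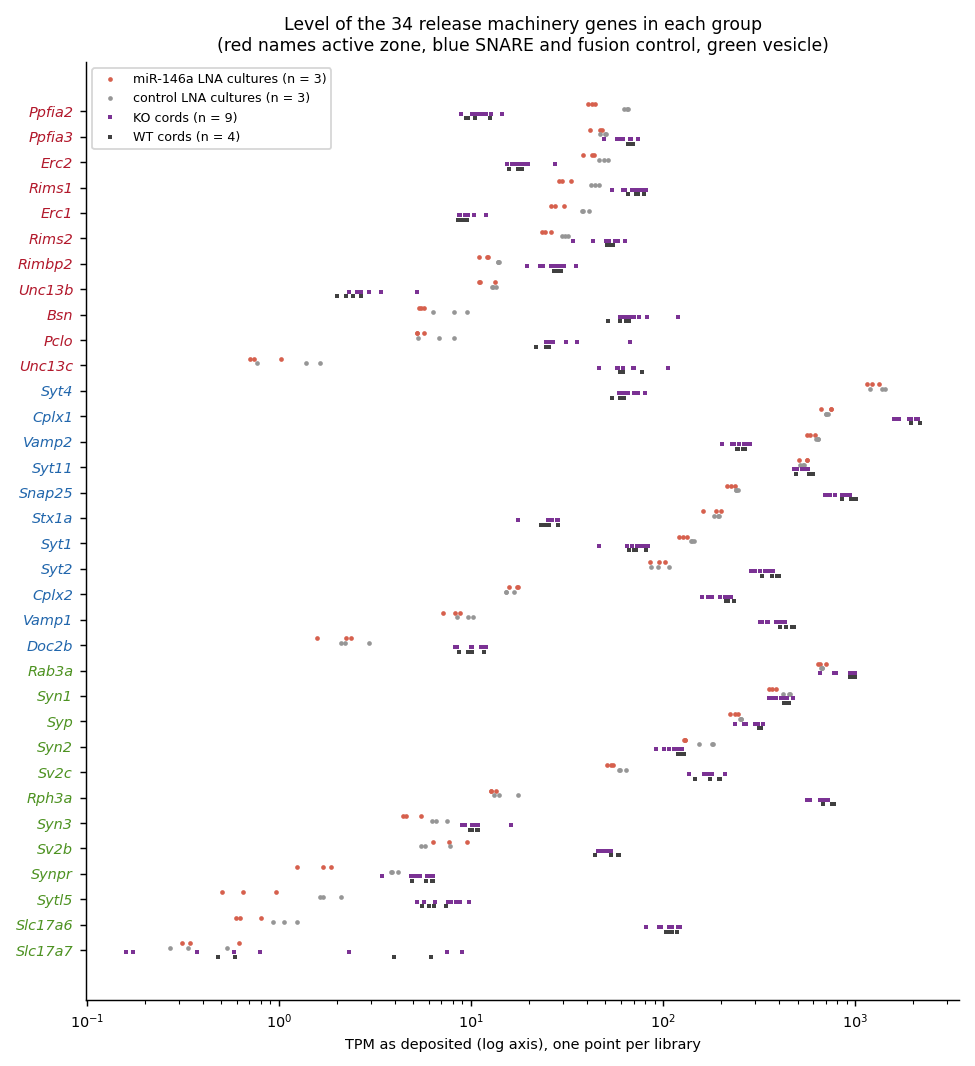
TPM of each member in every library on a log axis, one row per gene, with LNA cultures, control cultures, KO cords and WT cords from top to bottom within a row. Within each class genes are ordered by their level in control cultures, from Ppfia2 at 64.0 TPM down to Unc13c at 1.26 TPM in the active zone class, and culture and cord points are far apart for Unc13c, Vamp1, Rph3a and Slc17a6.

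The LNA and control cultures address how the release machinery of motor neurons differed after 72 h with an inhibitor of miR-146a. All 34 members passed the filter on low counts. With edgeR, 13 of them fell in LNA cultures (adjusted p below 0.05 over all 19099 genes tested) and 0 rose, where 6.16% of all genes tested fell and 2.4% rose. By class, 6 of 11 active zone genes, 1 of 11 fusion genes and 6 of 12 vesicle genes fell. The median log2 fold change was −0.33 for active zone, −0.09 for fusion and −0.23 for vesicle members, against 0.01 over all genes tested. In 17 members every LNA library lay below every control library, as was the case for 15.1% of all genes, and in 0 members did every LNA library lie above. Values per library below are normalised CPM, counts relative to a library size scaled by TMM (trimmed mean of M-values). In a bulk culture, fewer cells of a type and less RNA per cell cannot be told apart.

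Among active zone genes, all 11 had negative fold changes. Ppfia2 encodes liprin-α2, a scaffold that organises the active zone (chromosome 10, 106470339 to 106935952). It stood at 116, 120.4 and 129 normalised CPM in LNA cultures, against 179, 188 and 185 in control cultures. The groups did not overlap, and liprin-α2 mRNA fell by 0.59 on the log2 scale (SE 0.05, edgeR adjusted p = 3.98e-06). Rims1 encodes RIM1, which links calcium channels, Munc13 and Rab3 (chromosome 1, 22286251 to 22805994). It had 59.2, 67.4 and 62.5 normalised CPM in LNA cultures and 91.4, 95.2 and 87.0 in control cultures. Again without overlap, RIM1 mRNA fell by 0.53 on the log2 scale (SE 0.06, adjusted p = 4.62e-05). Its relative Rims2 had 66.1, 69.9 and 65.3 in LNA cultures and 84.0, 87.0 and 81.3 in control cultures, a fall of 0.33 on the log2 scale (SE 0.06, adjusted p = 0.00172).

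The ELKS genes Erc1 and Erc2, whose proteins bind RIM and Bassoon, both fell. Erc1 (chromosome 6, 119570796 to 119848167) had 118, 129 and 113 normalised CPM in LNA cultures and 176, 164 and 162 in control cultures (log2 −0.48, SE 0.06, adjusted p = 5.21e-05). Erc2, the longest member at 856 kb, had 97.7, 109.7 and 111 in LNA cultures and 119, 132 and 126 in control cultures (log2 −0.24, SE 0.06, adjusted p = 0.0209). Neither gene's groups overlapped. Bsn (chromosome 9, 108096022 to 108190384) was tight in LNA cultures, with 23.0, 23.5 and 22.95 normalised CPM, and spread in control cultures, with 40.2, 33.95 and 26.6. Its fold change was −0.54 (SE 0.12, adjusted p = 0.0109), and it was no longer called without LNA culture 1, LNA culture 3 or control culture 2 (adjusted p 0.0518 to 0.0854). The other 5 active zone members were not called: Pclo had −0.33 (SE 0.13, adjusted p = 0.149), Unc13c −0.60 (SE 0.27) at about 1 TPM, Rimbp2 −0.23 (SE 0.07, adjusted p = 0.0641), Unc13b −0.15 (SE 0.07) and Ppfia3 −0.11 (SE 0.06). In Pclo, control culture 3 at 31.3 normalised CPM lay among the LNA cultures at 31.0, 33.1 and 31.4, while the other controls stood at 48.4 and 40.3.

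In the fusion machinery none of the 3 neuronal SNAREs passed the test. Snap25 had 387, 397 and 429.6 normalised CPM in LNA cultures and 430.2, 426 and 438 in control cultures (log2 −0.09, SE 0.05, adjusted p = 0.277), Stx1a had a log2 fold change of −0.06 (SE 0.06), and Vamp2 one of −0.10 (SE 0.05, adjusted p = 0.199). Vamp2 did not overlap between groups, with 586, 613 and 573 in LNA cultures and 623, 636 and 640 in control cultures. Syt1, the calcium sensor of fast release (chromosome 10, 108497650 to 109010982), was the 1 fusion gene that fell. It had 279.6, 288 and 271 in LNA cultures and 318, 309 and 308 in control cultures (log2 −0.16, SE 0.05, adjusted p = 0.047). This call stood next to the threshold and was made in 5 of 16 settings run. The abundant Syt4, Syt11 and Cplx1 had log2 fold changes of −0.10, 0.04 and 0.02 and were not called, and Syt2, Cplx2, Vamp1 and Doc2b ranged from −0.23 to 0.10.

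Among vesicle genes, the synapsins fell as a family of 3. Syn1 (chromosome X, 20860511 to 20921004), which coats vesicles and tethers them to actin, had 335, 316 and 316 normalised CPM in LNA cultures and 392, 396 and 367.5 in control cultures (log2 −0.26, SE 0.05, adjusted p = 0.00256). Syn2 (chromosome 6, 115134902 to 115282006) had 239, 236 and 244 in LNA cultures and 285.5, 333 and 336 in control cultures (log2 −0.41, SE 0.06, adjusted p = 0.000242). Syn3 had 14.4, 17.5 and 15.1 in LNA cultures and 24.3, 20.1 and 21.3 in control cultures (log2 −0.48, SE 0.10, adjusted p = 0.00539). None of the 3 overlapped between groups.

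Synpr and Sytl5 had the steepest falls of the 34 and were scarce. Synpr (chromosome 14, 13284780 to 13616340), a synaptophysin relative found in the vesicle membrane, had 3.09, 4.14 and 4.74 normalised CPM in LNA cultures and 9.54, 9.56 and 10.4 in control cultures (log2 −1.29, SE 0.16, adjusted p = 5.2e-05). Sytl5, a Rab27 effector (chromosome X, 9885622 to 9994543), had 0.584, 0.303 and 0.403 in LNA cultures and 1.03, 1.26 and 0.998 in control cultures (log2 −1.37, SE 0.36, adjusted p = 0.0239). Without LNA culture 2 or any 1 control culture, Sytl5 was no longer called. Sv2c, a vesicle glycoprotein, had 137, 138 and 133 in LNA cultures and 150.1, 162 and 153 in control cultures (log2 −0.19, SE 0.05, adjusted p = 0.0288). The abundant Rab3a and Syp had log2 fold changes of 0.01 and −0.11, and Rph3a one of −0.20. Sv2b had the highest value of any member, 0.31 (SE 0.15, adjusted p = 0.247). The glutamate transporters were at the edge of detection in cultures: Slc17a6 had 0.852, 0.877 and 1.16 normalised CPM in LNA cultures and 1.77, 1.32 and 1.52 in control cultures (log2 −0.67, SE 0.28, adjusted p = 0.156), and Slc17a7 had 0.439 to 0.877 in LNA and 0.385 to 0.757 in control cultures.

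**Figure D2:**
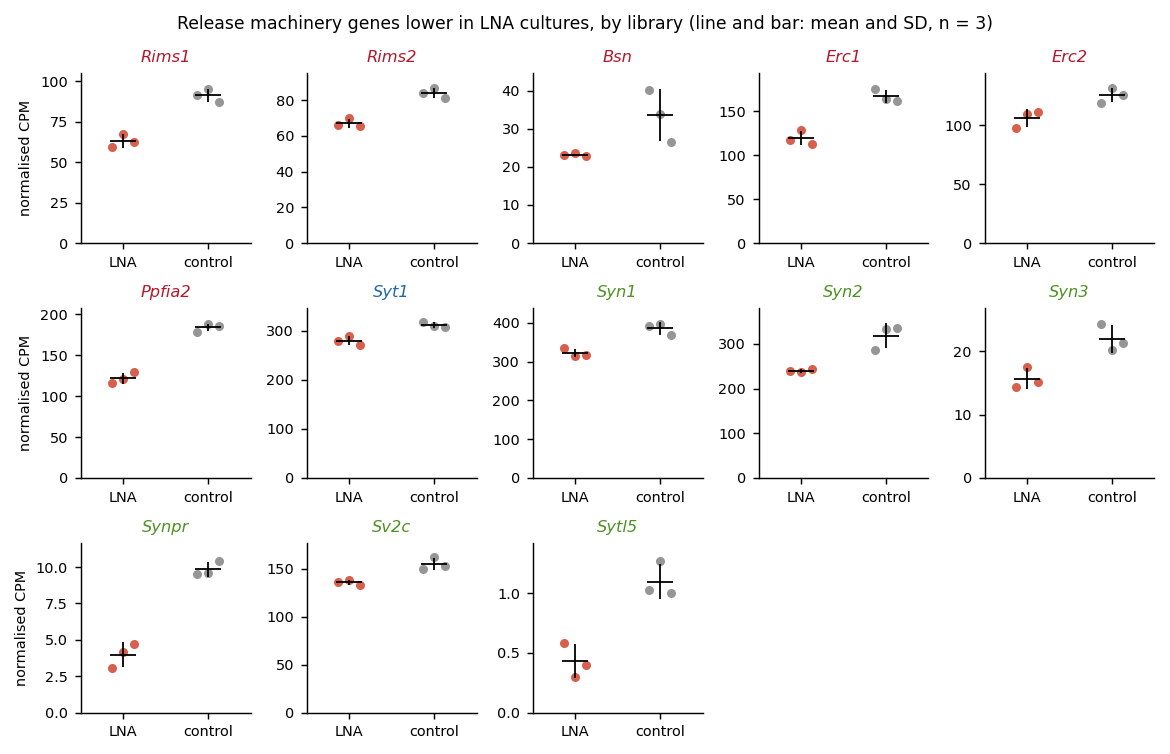
Normalised CPM of the 13 members that fell in LNA cultures, one panel per gene, with the 3 LNA libraries left of the 3 control libraries and the mean and SD. No LNA library reaches the lowest control library in any panel, and the control libraries of Bsn spread from 26.6 to 40.2.

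In the neighbouring machinery, listed by knowledge of the pathway, 17 of 84 tested genes fell and 0 rose with edgeR. With DESeq2 21 fell and 1 rose, and with the span offset described below 9 fell and 2 rose. Of 13 active zone genes 4 fell, among them Cacna1a, the pore of P/Q-type calcium channels (log2 −0.56, SE 0.09, adjusted p = 0.000641 with edgeR), and the scaffolds Cask (−0.34, SE 0.06) and Apba1 (−0.31, SE 0.05). Of 26 fusion genes 8 fell, among them the priming factor Cadps (−0.43, SE 0.05, adjusted p = 2.83e-05), Nsf, the ATPase that takes SNARE complexes apart (−0.41, SE 0.05), and tomosyn Stxbp5 (−0.47, SE 0.08). Of 23 vesicle genes 3 fell, Syngr1 (−0.30), the monoamine transporter Slc18a2 (−0.28) and Rab3gap1 (−0.23), and of 22 endocytosis genes 2 fell, Dnm3 (−0.36) and Synj1 (−0.33). The median was −0.10 over all 84, with 62 negative. Markers of inhibitory neurons that fell in the LNA cultures included Gad1 (log2 −1.07), Gad2 (−0.44) and Slc6a5 (−1.19), with edgeR adjusted p-values of 0.000575, 0.0123 and 0.0357. Of 8 motor neuron markers 1 rose (Isl1, 0.31) and 0 fell, with sums of 4500 to 4920 TPM in LNA and 4560 to 4680 TPM in control cultures. Of 8 pan-neuronal markers 2 fell, Map2 by 0.25 and Elavl3 by 0.21 on the log2 scale. The part of other neurons in the falls of scarce members such as Synpr and Slc17a6 was not tested.

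Among members with a seed match 0 were called higher after inhibition. Few genes rose at all: 39 of the 1928 matched genes tested, and 2.4% of all genes tested. Of the 7, 6 fell (Erc1, Ppfia2, Syt1, Syn1, Syn2 and Syn3), and Vamp1 had −0.22 (SE 0.09, adjusted p = 0.161). Of the 26 members with a 3′ UTR and no match, 6 fell. The median log2 fold change was −0.41 with and −0.13 without a match, but the members with a match also had the longer genes, with a median span of 277 kb against 69.3 kb. With the span offset described below, the medians were −0.20 with and −0.05 without a match. Over all genes tested, the medians were −0.06 with and −0.01 without a match, and 14.4% and 7.0% fell. With the offset, these medians were −0.01 with and 0.01 without a match.

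Genomic span, the distance from the start to the end of a gene with its introns, went with the fold change in cultures. Of the 1910 genes in the longest decile of span (above 116 kb), 29.4% fell, with a median of −0.18. In the shortest decile 0.104% fell and the median was 0.36. The active zone class had a median span of 349 kb, the vesicle class 89.3 kb and the fusion class 30.4 kb, which is the same order as their median falls. The longest decile held 16 members, of which 10 fell and 12 were below that decile's median. Across genes, Spearman's rho of log2 fold change on span was −0.58 over the 34 members and −0.35 over all genes tested, as a description, since genes of 1 library share its depth and RNA. Exon length in place of span gave −0.42 over the members and −0.36 over all genes tested, so span and exon length were not told apart. At the long end the libraries of each group moved alike: genes near 1000 kb lay 0.16 to 0.20 below the mean of the 6 libraries (log2) in the 3 LNA cultures and 0.15 to 0.22 above it in the 3 control cultures. At the short end 1 library stood apart: genes near 1 kb lay 0.38 above that mean in LNA culture 3, against 0.01 and −0.02 in LNA cultures 1 and 2 and −0.12 to −0.04 in the control cultures.

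**Figure D3:**
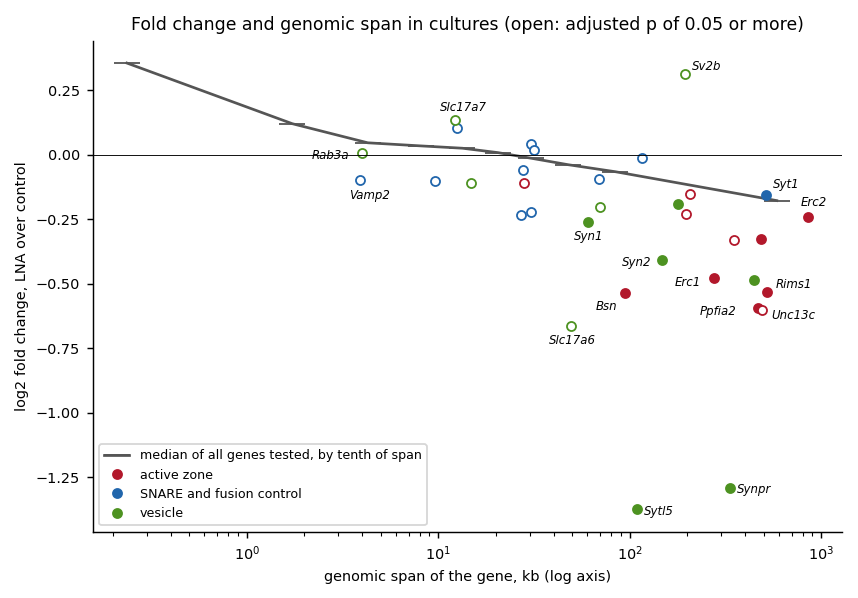
Log2 fold change of each member in LNA over control cultures against its genomic span in kb on a log axis, with the median of all genes tested in each decile of span as a grey line. The line falls to −0.18 in the longest decile, and Synpr, Sytl5, Ppfia2, Rims1, Erc1, Bsn and Syn2 lie well below it while Erc2 and Syt1 lie close to it.

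When each library's trend with span was entered as an offset in edgeR, 8 of the 13 calls remained, where 3.4% of all genes fell. The 8 were Rims1 (−0.23, adjusted p = 0.0265), Bsn (−0.44, adjusted p = 0.0248), Erc1 (−0.26, adjusted p = 0.00672), Ppfia2 (−0.30, adjusted p = 0.00242), Syn1 (−0.20, adjusted p = 0.0163), Syn2 (−0.27, adjusted p = 0.0137), Synpr (−1.04, adjusted p = 0.00035) and Sytl5 (−1.27, adjusted p = 0.0368). Rims2 (−0.03), Syn3 (−0.20) and Sv2c (−0.02) were then not called, and Erc2 (0.13) and Syt1 (0.15) had positive values that did not pass the test. The class medians were −0.10 for active zone, −0.02 for fusion and −0.17 for vesicle members, and rho over the 34 members was −0.07. The offset removes any difference between the groups that goes with span, whatever its origin, so an effect of the LNA on long genes and a technical trend cannot be told apart.

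**Figure D4:**
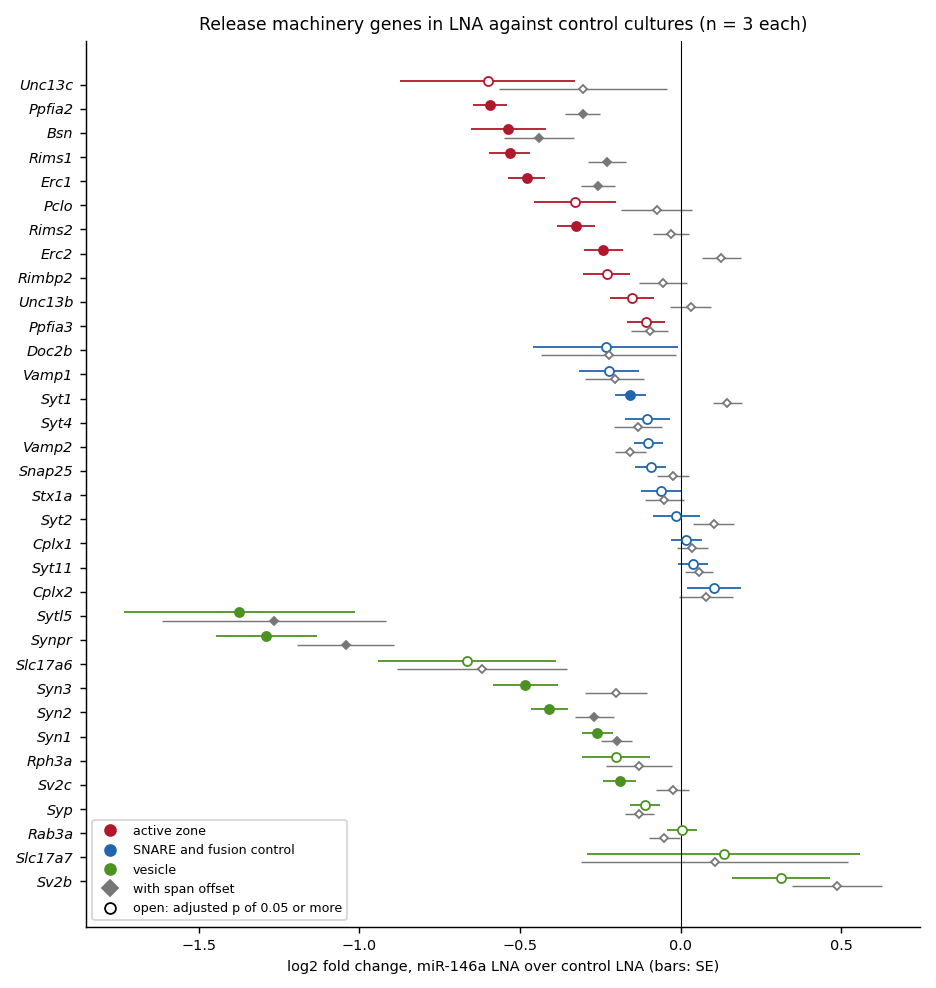
Log2 fold change with SE of the 34 members in LNA over control cultures (n = 3 each), by class, as circles for edgeR and grey diamonds for edgeR with the span offset, filled where the adjusted p is below 0.05. All 11 active zone circles lie left of 0, and the diamonds of long genes such as Rims2, Erc2 and Syt1 move to 0 or beyond.

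With 1 culture left out, between 8 and 13 members were lower. The lowest count, 8, came without control culture 2, and these were Rims1, Rims2, Erc1, Ppfia2, Syn1, Syn2, Syn3 and Synpr. Over all genes the lower calls also dropped in that setting, from 1177 to 606. Erc2 lost its call without LNA culture 1, control culture 2 or control culture 3, and Syt1 and Sv2c lost theirs without LNA culture 1 or any 1 control culture (adjusted p 0.0512 to 0.199). Rims1, Erc1, Ppfia2, Syn1, Syn2 and Synpr were lower in all 16 settings run for the cultures.

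The cord comparison asks whether the same machinery differed in animals without miR-146a. edgeR called 0 of 34 members and 0.0% of the 22174 genes tested, and DESeq2 called 0 members and 388 genes. At an unadjusted p below 0.05, 10 members were lower in KO cords and 0 higher, where 6.8% of all genes were lower and 7.53% higher. These 10 were the fusion genes Snap25, Vamp1, Syt2, Syt11 and Cplx1 and the vesicle genes Syn1, Syn2, Syp, Sv2b and Rph3a. The class medians of the log2 fold change were 0.03 for active zone, −0.15 for fusion and −0.17 for vesicle members, against 0.02 over all genes tested.

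Vamp1, the synaptobrevin of fast-firing neurons and of motor nerve terminals, and Rph3a, a Rab3 effector, had every KO cord below every WT cord, which held for 0.798% of all genes. Vamp1 ranged from 998.5 to 1379 normalised CPM in KO cords with a median of 1224, and had 1485, 1618, 1401 and 1409 in WT cords. This is a log2 difference of −0.31 (SE 0.09, adjusted p = 0.292 with edgeR). Rph3a ranged from 814 to 1060.0 in KO cords with a median of 940.1, and had 1120.0, 1172, 1105 and 1082 in WT cords (log2 −0.26, SE 0.08, adjusted p = 0.292). Snap25 ranged from 1464 to 2021 with a median of 1803 in KO cords, and had 2145, 2204, 2032 and 1977 in WT cords. It was lower than every WT cord in 7 of 9 KO cords (log2 −0.25, SE 0.09, adjusted p = 0.294). Syn2 likewise lay below every WT cord in 7 of 9, with 201 to 278 in KO cords and 264, 284, 286 and 286.5 in WT cords (log2 −0.20, SE 0.07). Syn1, Syn3 and Syp also did so in 7 of 9. Syn3 had a log2 difference of only −0.04 (SE 0.10), with 2 KO cords above every WT cord. How many of all genes reached 7 of 9 was not counted, so these counts are a description.

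None of the 11 active zone genes reached an unadjusted p below 0.05 in cords with edgeR. Rims1 did with the span offset (−0.16) and with limma, and Unc13b with DESeq2 (0.32). The library labelled KO 9 was the highest of all 13 cords for 9 members, 8 of them active zone genes, and the library labelled KO 7 the lowest for 19. Bsn ranged from 307 to 536 normalised CPM in KO cords, with 536 in KO 9, and had 330.0, 338, 301 and 280.1 in WT cords (log2 0.23, SE 0.13, adjusted p = 0.405). Pclo reached 425 in KO 9 and had 173.5 to 249 in the other KO cords and 171, 188, 179 and 167 in WT cords (log2 0.32, SE 0.22, adjusted p = 0.491). Without KO 7 and KO 9 their fold changes were 0.12 and 0.10. Erc1 and Ppfia2, which fell in cultures, had 0.05 (SE 0.05) and 0.06 (SE 0.10) in cords, and 0.02 and 0.09 without those libraries. Without both libraries, 7 members were lower and 2 higher (Unc13b and Syt4) at an unadjusted p below 0.05 with edgeR. Of all 21573 genes tested in that setting, 1297 were lower and 1929 higher, so 2 higher members are no more than the share of all genes. In that setting 0 members passed the adjusted threshold, and Vamp1, Rph3a, Snap25 and Syn2 had −0.24, −0.20, −0.18 and −0.14. The class medians were then 0.01 for active zone, −0.09 for fusion and −0.12 for vesicle members, and edgeR called 8 genes over the whole table. With the span offset and all 13 cords, 12 members were lower, the 10 named above with Rims1 and Sv2c, where 1497 of all 22174 genes tested were lower. The 10 lower members became 5 without WT 1 and 4 without WT 2. Counts over all genes in those settings are not given here, so whether the drop is particular to the members cannot be told.

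Markers of other cells also varied between the cords. Red blood cell markers summed to 140 to 2930 TPM in KO and 93.6 to 170 TPM in WT cords. Astrocyte markers summed to 4430 to 8720 TPM in KO and 4250 to 5540 TPM in WT cords. Gfap alone ran from 809 to 4600 TPM in KO and from 858 to 1490 TPM in WT cords. Of the 8 astrocyte markers 5 were positive and 3 negative, with a median log2 fold change of 0.125. Pan-neuronal markers summed to 3060 to 3880 TPM in KO and 3390 to 3840 TPM in WT cords, with 7 of 8 negative and a median log2 fold change of −0.12. Medians were also negative for motor neuron (−0.27, 6 of 8 negative), glutamatergic interneuron (−0.18, 5 of 5) and inhibitory neuron markers (−0.145, 5 of 6). Without the libraries labelled KO 7 and KO 9, these 4 medians were −0.10, −0.27, −0.12 and −0.065 in the same order. The part of cell makeup in the lower fusion and vesicle values was not tested. In the neighbouring machinery edgeR called 0 of 87 tested genes and DESeq2 called 1, the endocytosis gene Bin1, which was lower in KO cords. At an unadjusted p below 0.05 with edgeR, 21 were lower and 3 higher, with a median of −0.10. Of all genes tested, 6.8% were lower and 7.53% higher. Without the libraries labelled KO 7 and KO 9, 10 neighbouring genes were lower and 3 higher, with a median of −0.06. In that setting 1297 of all 21573 genes tested were lower and 1929 higher. With all cords, the neighbouring genes with the smallest p included the endocytic genes Bin1 (−0.16, SE 0.05) and Sh3gl2 (−0.25, SE 0.08) and the synaptotagmin Syt3 (−0.27, SE 0.09).

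Slc17a7, the vesicular glutamate transporter of cortical type, varied most between cords, and not by genotype. It ranged from 0.267 to 15.7 normalised CPM in KO cords with a median of 0.885, and had 10.3, 7.09, 0.818 and 1.09 in WT cords. High values stood in KO 4, KO 6 and KO 7 and in WT 1 and WT 2, and the log2 fold change was −0.27 (SE 1.18) with and −0.09 without KO 7 and KO 9. Its relative Slc17a6, the main spinal form, had 138 to 208 in KO cords and 187 to 201 in WT cords.

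**Figure D5:**
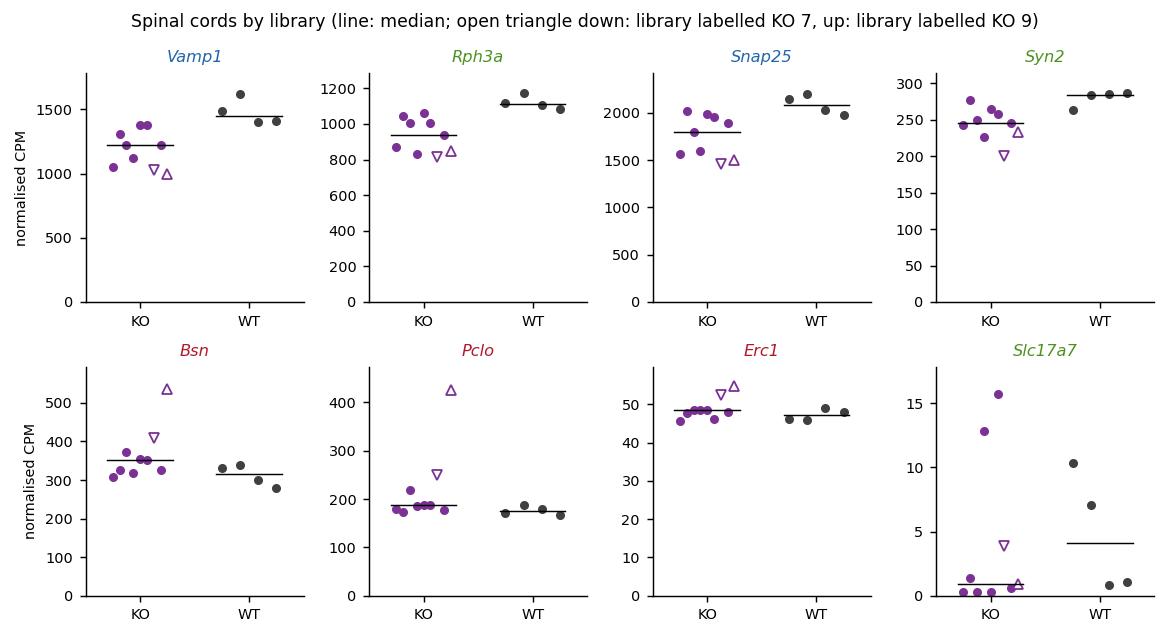
Normalised CPM in each spinal cord for 8 members, with the 9 KO libraries left of the 4 WT libraries, a line at the median and open triangles for the libraries labelled KO 7 (down) and KO 9 (up). Vamp1 and Rph3a do not overlap between the groups, Bsn and Pclo peak in KO 9 at 536 and 425, and Slc17a7 is high in some libraries of both groups.

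Whether the LNA effect differed from the KO effect was tested in 1 model of all 19 libraries. That model fits the same spread per gene to cultures and cords, which are different materials. For Sytl5 the SE of the difference (0.30) was below its SE in cultures alone (0.36). Slc17a6 likewise had 0.21 against 0.28, so the spread of cultures may be understated for such scarce members. Of 34 members 4 had a more negative effect in cultures, where 1.25% of the 24152 genes tested did, and 0 a more positive one. They were Erc1 (difference of log2 fold changes −0.55, SE 0.09, adjusted p = 0.00286 with edgeR), Ppfia2 (−0.68, SE 0.14, adjusted p = 0.017), Synpr (−1.14, SE 0.23, adjusted p = 0.0123) and Sytl5 (−1.56, SE 0.30, adjusted p = 0.00815). Bsn had −0.79 (SE 0.20, adjusted p = 0.0548). Without the libraries labelled KO 7 and KO 9, 8 members passed, adding Rims1, Bsn, Syn3 and Slc17a6. The share of all genes in that setting is not given here, so the larger count is not particular to the members. With the span offset, 1 member passed, Sytl5 (−1.40, adjusted p = 0.0396), where 54 of all 24152 genes tested had a more negative effect in cultures. The synapsins Syn1 and Syn2, negative in both materials, had differences of −0.11 (SE 0.11) and −0.24 (SE 0.12) that did not pass, and Vamp1 and Rph3a had 0.07 (SE 0.15) and 0.04 (SE 0.14).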

How the data were processed

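Per the submitters' processing notes, reads were aligned with STAR 2.7.9a1 to GRCm38 and counted per gene with featureCounts; the strand setting is not given in the sources used here. The deposited tables, 1 per library, hold raw counts, the main input here, and TPM, used for levels. The authors' CPM and FPKM columns were also deposited: CPM matched a recalculation from the counts, and FPKM was not used. Gene symbols came from a reference table by Ensembl ID. Within each material, genes passing filterByExpr were tested with edgeR 4.0.16 (R 4.3.3; TMM, robust quasi-likelihood fit) and Benjamini-Hochberg adjustment over all genes tested, with a threshold of 0.05. The span offset was a lowess curve (f = 0.3) per library of log2 CPM deviations on log10 genomic span. Alternatives were DESeq2 1.42.0, limma 3.58.1 (voom with quality weights), other scalings and filters, a replicate block, and leaving libraries out. The fits were tested on simulated data. Start and end were the same in GENCODE vM21 for 99.4% of genes compared and for all 34 members. The deepest library had 65471742 counts and the shallowest 28163289, where 3 counts are 0.1065 CPM; this floor covers counting error alone. Every pair of replicates differed by more than sampling noise (lowest chi-square per degree of freedom 6.03). Members, lists and the rule for named genes (every member called, the 5 most abundant per class in cultures, and at most 3 genes per neighbouring list) were chosen with earlier results of these data known. The genes named in the cords, where edgeR called none, were chosen after their values were seen. Some marker genes, and the sums of the lists that hold them, are not reported here.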

Additional observations from a re-analysis of the deposited data

Results flagged for a closer look

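Dixon's criterion was applied to 68 groups of values, each member in KO cords and in WT cords. In 12 of them a library lay far from the others of its group. The criterion flags about 1 in 20 independent groups by chance. These groups share the same libraries, so the 12 cannot be set against that rate. In the library labelled KO 9, normalised CPM stood above the other KO cords at 536.1 for Bsn (others 307 to 408), 425.4 for Pclo (others 173.5 to 249), 33.32 for Unc13b (16.7 to 24.7), 261.4 for Unc13c (127 to 194), 74.24 for Erc2 (46.5 to 59.6) and 55.86 for Syn3 (34.2 to 42.0). These 6 span 94.4 to 856 kb. In that library genes near 100 kb lay 0.09 and genes near 1000 kb 0.30 (log2) above the mean of cords. Rims1, Rims2 and Syt1, of 486 to 520 kb, had 178.9, 183.5 and 185.1 there, within the range of the other KO cords. The part of span in these values was not tested. The library labelled KO 7 stood below the other KO cords at 14.58 for Stx1a (others 19.5 to 24.0), 120.9 for Syt1 (175.6 to 216.5) and 10.11 for Synpr (14.8 to 18.5). WT 1 was low at 165.3 for Rims2 (others 180.2 to 181.6) and at 264.2 for Syn2 (284 to 286.5), and WT 2 at 15.29 for Synpr (18.6 to 18.7).

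The LNA effect minus the KO effect differed from 0 in the test over all 19 libraries for Erc1 (−0.55), Ppfia2 (−0.68), Synpr (−1.14) and Sytl5 (−1.56). Cultures and cords differ in cell makeup, age and library depth as well as in how miR-146a was removed, and these cannot be told apart.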

How the results depend on the processing

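In the cultures, 13 members were lower, and 10 to 15 under another tool, scaling or filter; with the span offset, alone or with the replicate block, there were 8, and 8 to 13 with 1 library left out (active zone 4 to 7, vesicle 4 to 6). The 1 fusion call, Syt1, was lost (0 calls) with DESeq2 size factors, library size alone, no filter, a filter at 1 CPM, the span offset, the replicate block and both together, and ranged over 0 to 2 with 1 library left out. With the offset, alone and with the block, Erc2 reversed to 0.127 and 0.125 and Syt1 to 0.146 in both; the offset takes out differences that go with span by its construction. Sv2b alone was higher (1 member) with no filter and with block and offset. The replicate block alone gave 12 lower members. Deviations of same-numbered LNA and control libraries had correlations of 0.061, −0.146 and 0.023, and those of differently numbered libraries −0.188 to 0.183. With 3 libraries per group, these values cannot show whether a number marks a shared culture or day.

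Of the neighbouring genes 17 were lower, against 9 with the offset, 11 with block and offset, and 10 to 19 with 1 library left out. Of all genes 1177 were lower, against 649 with the offset, 735 with block and offset and 606 to 1308 with 1 library left out; 458 were higher, against 746 with DESeq2, 744 with limma, 741 with library size alone, 868 with no filter and 172 to 677 with 1 library left out. Spearman's rho on span in cultures was −0.074 over members and 0.03 over all genes with the offset. With exon length in place of span and no offset, it was −0.424 over members and −0.359 over all genes, where span gave −0.349. In cords rho on span was 0.362 over members and 0.253 with the offset, and 0.02 over all genes tested and 0.127 over those averaging at least 1 CPM. The cause of these shifts was not tested.

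In the cords, members lower at an unadjusted p below 0.05 ranged from 4 to 11 with 1 library left out. Members higher there were 1 with DESeq2, 1 with limma, 1 with no filter, 2 without the libraries labelled KO 7 and KO 9, and 0 to 2 with 1 library left out. For the cords, counts over all genes with 1 library left out are not given here. Between materials, 1 member passed with the offset and 8 without KO 7 and KO 9. Of 508 single-member values in cultures under alternatives, 440 kept direction and call or moved by less than the spread between replicates. So did 712 of 714 in cords and 248 of 272 between materials. In cords 0 members were called in the main fit, so no call could be lost there. Depth limits the scarce members Sytl5, Slc17a6, Slc17a7 and Unc13c in cultures, where a library's normalised CPM was at most 3.77.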

Other observations

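Slc17a7 varied across the 13 cords in libraries of both genotypes. Among 15435 genes compared over these cords, those closest to it by Pearson's r of log2 normalised CPM were Frem3 (0.946), an extracellular matrix gene, Plpp2 (0.919), a lipid phosphatase gene, and Hoxa4 (0.884), a homeobox gene; they were chosen after the values were seen, and the correlations are a description without a test. Frem3 had 6.16, 5.78 and 2.34 normalised CPM in KO 4, KO 6 and KO 7 and 3.01 and 2.89 in WT 1 and WT 2, against 0.801 to 2.01 in the other KO cords and 1.42 and 1.20 in WT 3 and WT 4.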
